A study of Mus musculus with 4 samples.

Results

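The loci of the sarcomeric myosin heavy chain genes were examined in LSD1 ChIP-seq peak lists from differentiating C2C12 cells. Peaks were taken from 2 fixed windows of the mouse genome, build mm9, whenever they overlapped a window by at least 1 bp. The fast window, chromosome 11 from 66850000 to 67240000 (390 kb), was laid over the developmental, fast and extraocular genes Myh3, Myh2, Myh1, Myh4, Myh8 and Myh13. The slow window, chromosome 14 from 55540000 to 55640000 (100 kb), was laid over Myh6 and Myh7. Together the windows held 16 of the 44039 day 2 peaks and 4 of the 17446 day 5 peaks. C2C12 is a mouse myoblast line that fuses into myotubes when serum is reduced, and LSD1, encoded by Kdm1a, is a demethylase of histone H3 that works in repressor complexes. The groups were LSD1 precipitates and inputs of cells kept 48 h (day 2, differentiating) or 120 h (day 5, differentiated) in 2% horse serum with 25 mM glucose, after growth in 10% fetal serum, with 1 library in each of the 4 groups. The labels name no genetic change or drug, and the peak lists of the 2 LSD1 libraries were analysed, while the inputs were not analysed here. Read totals are unknown here, so a difference in peak number between days cannot be told apart from one in depth. Each group has a single library, so differences have no replicate check and no test of them was made.

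Myosin heavy chain is the motor of the thick filament, and which gene is expressed largely sets the contraction speed of a muscle fibre. Myh3 (embryonic) and Myh8 (perinatal) are expressed in developing and regenerating muscle, Myh2, Myh1 and Myh4 encode the adult fast IIa, IIx and IIb chains, and Myh13 is the extraocular chain. Myh7 encodes the slow chain of type I fibres and of the heart ventricle, and Myh6 is the alpha chain of the heart. The fast genes stand in 1 cluster on the same strand, and the slow pair stands side by side on the opposite strand of its chromosome.

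In the RefSeq gene table (build GRCm38.p6, used for names, order and strand), the order along chromosome 11 was Adprm, Sco1, Myh3, the long non-coding RNA 2310065F04Rik, Myh2, Myh1, Myhas, Myh4, Myh8 and Myh13, leaving out other non-coding genes. On chromosome 14 it was Cmtm5, Myh6, Mhrt, Myh7 and Ngdn. The peaks are in mm9 and no coordinates were converted, so no peak was assigned to a gene start and the windows were not checked against mm9 gene positions. A peak in a window may therefore belong to a neighbour such as Sco1 or Ngdn.

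The sequences just before the start of 3 members are shown because they stand for the roles compared: Myh3 is the first member of the fast cluster, on the side where most peaks lay, Myh4 is an adult fast gene further along, and Myh7 is the slow gene. Capitals mark E-boxes (CANNTG), a broad class of sites that includes those of MyoD and myogenin, so a match is not specific to these factors. The stretches are from RefSeq, build GRCm38.p6, and end at the base before the outermost start of the gene in the table. They are at chr11:67078050-67078272 (plus strand), chr11:67237562-67237811 (plus strand) and chr14:54994627-54994876 (minus strand), positions that cannot be set beside the mm9 positions of the peaks.
Myh3: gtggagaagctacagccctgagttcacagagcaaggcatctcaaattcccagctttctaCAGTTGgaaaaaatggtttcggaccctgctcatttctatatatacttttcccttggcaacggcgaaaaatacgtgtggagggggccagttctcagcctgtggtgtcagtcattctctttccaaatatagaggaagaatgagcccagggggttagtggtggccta
Myh4: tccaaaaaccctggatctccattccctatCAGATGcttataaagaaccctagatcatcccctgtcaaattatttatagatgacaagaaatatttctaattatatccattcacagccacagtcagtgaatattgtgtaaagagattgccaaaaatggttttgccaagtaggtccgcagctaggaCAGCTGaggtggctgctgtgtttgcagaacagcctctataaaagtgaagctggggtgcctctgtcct
Myh7: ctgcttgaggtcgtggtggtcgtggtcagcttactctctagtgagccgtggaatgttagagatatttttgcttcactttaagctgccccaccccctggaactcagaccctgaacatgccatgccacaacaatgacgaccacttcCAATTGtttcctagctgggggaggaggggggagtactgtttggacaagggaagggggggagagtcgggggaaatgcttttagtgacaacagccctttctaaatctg
These stretches held 1 E-box in Myh3 (CAGTTG), 2 in Myh4 (CAGATG and CAGCTG) and 1 in Myh7 (CAATTG).

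All 8 genes matched the RefSeq promoter table, which gives windows of 300 bases from 250 before to 50 after a start, with 9 windows for the members since Myh7 has 2 starts. The motifs were searched on both strands, and a match describes letters, not binding. An E-box (CANNTG) was present in 7 of the 9 member windows (77.8%), beside 72.3% of all 32851 windows. The E-box was missing from Myh1 and Myh2. Of its variants, CAGCTG was found in Myh4 alone (11.1%, all windows 16.3%) and CACCTG in the overlapping windows of the 2 Myh7 starts (22.2%, all windows 20.2%). The letters TATAAA were found in 6 of 9 (66.7%, all windows 13.6%) and were missing from Myh13 and from both starts of Myh7. A MEF2 motif was found in 3 (Myh1, Myh4 and Myh8, all windows 3.19%), and it can overlap TATAAA. A CArG box was found in 2 (Myh4 and Myh13, all windows 1.63%). The MCAT letters CATTCC were found in 4 windows (44.4%, all windows 14.7%), those of Myh1, Myh4, Myh6 and 1 start of Myh7. Myh4 was the member with the most motif kinds, holding E-box, TATAAA, MCAT, MEF2 and CArG matches. GC content ran from 38.0% in Myh1 to 57.3% in Myh6, with 52.7% as the median of all windows.

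The slow pair also hosts a pair of related miRNAs, shown because the window laid over that pair had no day 5 peak. By the same table miR-208a lies within Myh6 and miR-208b within Myh7. Capitals mark the seed, bases 2 to 8 from the 5' end.
mmu-miR-208a-3p: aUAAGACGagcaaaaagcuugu
mmu-miR-208b-3p: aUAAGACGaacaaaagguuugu
The seeds are the same, and the 22-base sequences differ by G10A, A16G and C18U (miR-208a-3p base first, counted from the 5' end).

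LSD1 peaks were found in both myosin windows at day 2, and at day 5 only the fast window held any. The peaks were not placed on genes, so this does not show LSD1 over a myosin gene. The fast window held 12 peaks at day 2 and 4 at day 5. The slow window held 4 at day 2 and 0 at day 5. This depended on the limits used: with windows widened by 50 kb on each side the slow window held 12 and 2 peaks, and with peaks at or above the median score of their list the fast window too held 0 at day 5. Per length, the fast window had 3.08 day 2 peaks per 100 kb (exact Poisson 95% interval 1.59 to 5.37). The slow window had 4 per 100 kb (1.09 to 10.2), so the windows did not differ beyond counting error at day 2. At day 5 the fast window had 1.03 peaks per 100 kb (0.279 to 2.63). The count of 0 in the slow window allows up to 3 peaks per 100 kb, so a difference between the windows was not detectable at day 5 either. These intervals, like those below, cover counting error only. The ratio of day 2 to day 5 peaks in the fast window was 3, beside 2.52 for the whole lists. Peaks covered 1.77% of the fast window at day 2 and 0.252% at day 5, and 2.92% of the slow window at day 2.

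**Figure D1:**
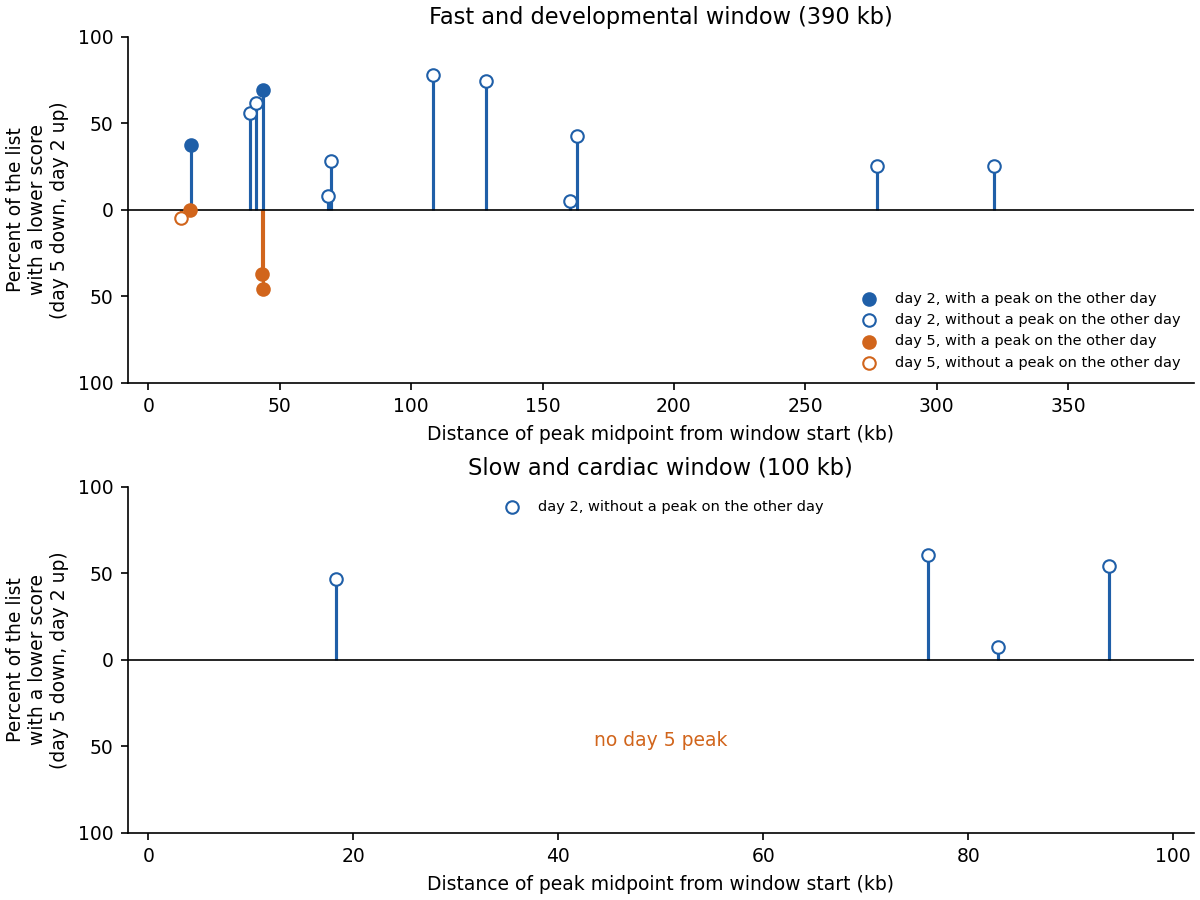
LSD1 peaks along the fast (upper panel) and slow (lower panel) windows, by distance of the peak midpoint from the window start in kb; height is the percent of the day's own list with a lower score, drawn upward for day 2 and downward for day 5, and filled circles have a peak on the other day. The 4 day 5 peaks of the fast window lie within its first 44 kb, and the slow window has day 2 peaks only.

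Within the fast window the peaks were concentrated toward the side where the gene order begins with Adprm, Sco1 and Myh3. In 4 successive stretches of 97.5 kb, counted from the window start, the day 2 peaks numbered 6, 4, 1 and 1. The 4 day 5 peaks all lay in the first stretch, with the last one ending 43.9 kb from the window start. The longest peak-free stretch at day 2 ran from 67013328 to 67127260 (114 kb, 29.2% of the window) and the next from 67171993 to the window end (68.0 kb). At day 5 the last 346 kb of the window, 88.7% of it, held no peak, and the longest stretch before that was 27.2 kb, between the 2 places with peaks.

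The strongest day 2 peaks of the fast window stood alone, with no day 5 peak near them. The peak score is the authors' value from the peak caller, on a scale not stated, and is used here only to rank peaks within 1 list. The peak at 66958012 to 66958497 had the highest score of the window (204, width 486 bp), above 77.7% of the day 2 list, and the nearest day 5 peak was 64.1 kb away. The next, at 66978282 to 66979001 (score 185, 720 bp), stood above 74.4% of the list, with the nearest day 5 peak 84.4 kb away. With the day 2 peaks ranked by score and divided into 10 equal parts, both fell in the third part from the top, in which 44.8% of peaks had a day 5 partner.

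Near the window start lay the only group of close day 2 peaks with a day 5 peak among them. The peak at 66893201 to 66894206 (score 162, 1006 bp) was the third in score, and it contained 2 separate day 5 peaks, at 66893303 to 66893562 (score 63.7, 260 bp) and 66893632 to 66893913 (score 69.5, 282 bp). A stretch of 69 bp separated those day 5 peaks. The neighbouring day 2 peak at 66890217 to 66891391 was the widest of the window (1175 bp, score 135). It had no day 5 partner, although a day 5 peak lay 1.91 kb away. The third of this group, at 66888504 to 66889056 (score 119, 553 bp), lay 4.25 kb from the nearest day 5 peak.

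The other shared place had a day 5 peak near the bottom of its list. The day 2 peak at 66865884 to 66866506 (score 82.9, 623 bp, above 37.2% of the day 2 list) met the day 5 peak at 66865848 to 66866070 (score 50.1, 223 bp) by 187 bp, and the day 5 peak began 36 bp before it. That day 5 score stood above 0.390% of the day 5 list, whose lowest score is 50. The remaining day 5 peak of the window, at 66862198 to 66862415 (score 51.2, 218 bp), was the single member found at day 5 alone, and the nearest day 2 peak was 3.47 kb away. Both of these day 5 peaks were thus close to the lower score limit of the list.

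The other day 2 peaks of the fast window were narrow and mostly low in score. A pair stood at 66918234 to 66918614 (score 54.6, 381 bp) and 66919277 to 66919752 (72.1, 476 bp), with 662 bp between them. Another pair stood at 67010253 to 67010501 (52.7) and 67012900 to 67013327 (91.1, 428 bp), of which the first was the narrowest day 2 member with 249 bp. These pairs had a day 5 peak no nearer than 24.3 kb. The last 2 peaks stood alone on the side of the gene order that ends with Myh13, at 67127261 to 67127593 (68.9, 333 bp) and 67171520 to 67171992 (68.7, 473 bp), 212 and 168 kb from a day 5 peak.

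In the slow window the 4 day 2 peaks lay toward the ends and left the middle free. The first, at 55558099 to 55558620 (score 97.6, 522 bp), was followed by 56.9 kb without a peak, from 55558621 to 55615473. The peak at 55615474 to 55616655 was the strongest and widest of the slow window (score 132, 1182 bp), above 60.7% of the day 2 list. It was followed by 55622738 to 55623109 (54.3, 372 bp) and 55633314 to 55634156 (113, 843 bp), so that 3 of 4 peaks lay in the last 25 kb of the window, the side of the gene order that runs from Myh7 to Ngdn. The nearest day 5 peak was 45.4 kb from the first of these peaks and 76.7 to 94.2 kb from the others.

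By score rank the day 2 peaks of both windows lay around the middle of the list, and most of those of the fast window were narrower than its median. The median day 2 peak of the fast window scored above 39.9% of the list (95% interval of the median 25.3 to 69.4%, range 5.00 to 77.7%), and 5 of 12 were above the list median. In the slow window the median stood above 50.2% (range 7.51 to 60.7%, with too few peaks for an interval), and 2 of 4 were above the list median. No member was in the top 10% of either list by score. The median width was 481 bp in the fast window (range 249 to 1175) and 682.5 bp in the slow window (range 372 to 1182), beside 663 bp for the day 2 list. Only 3 of 12 fast members were wider than the list median, against 2 of 4 slow members. The ranges of the windows overlapped in both measures, and with the windows widened by 50 kb on each side the median ranks were 49.4% and 53.1%. At day 5 the fast members had a median rank above 20.7% of the list (range 0.390 to 45.7%). Their median width was 241.5 bp (range 218 to 282), beside 331 bp for the list, and none of the 4 exceeded the list median in either.

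**Figure D2:**
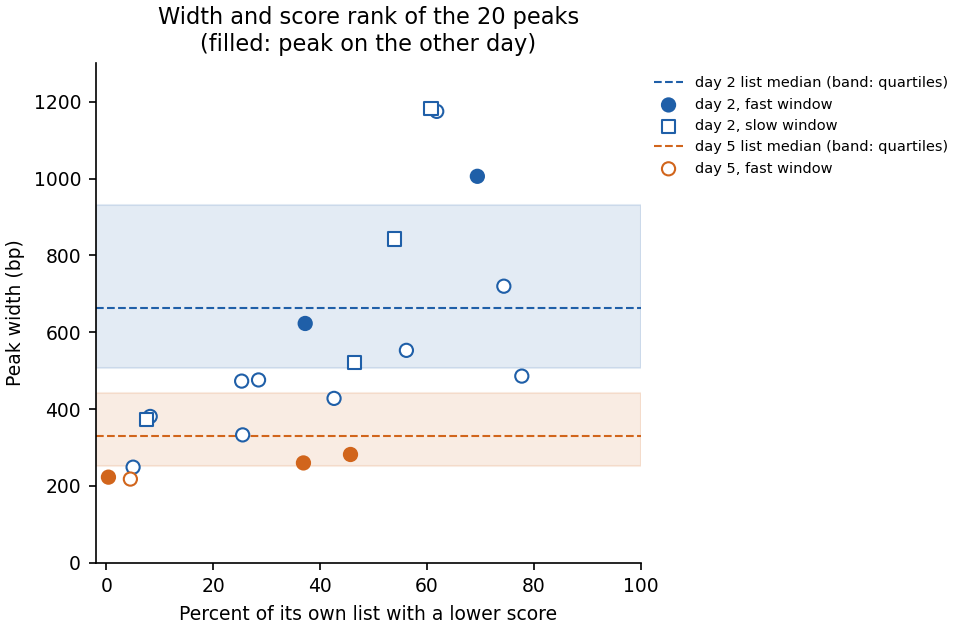
Width in bp against score rank (percent of the day's own list with a lower score) for the 20 member peaks, with the median and quartiles of each whole list as dashed lines and bands; circles are the fast window, squares the slow window, and filled symbols have a peak on the other day. All 4 day 5 peaks lie below the day 5 median width of 331 bp, and the filled day 2 symbols are neither the widest nor the highest in rank.

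Few of the day 2 peaks in the windows had a day 5 partner. In the fast window 2 of 12 did (16.7%, Wilson 95% interval 4.70 to 44.8), and in the slow window 0 of 4 did (Wilson 95% interval 0 to 49.0). Over the whole day 2 list the share was 30.4%, which lies inside the intervals of both windows, so neither window stood apart from the list beyond counting error. The day 2 list is longer than the day 5 list. With it cut by score to equal length, the share was 25% in the fast window and 0% in the slow window. Of the 4 day 5 peaks of the fast window, 3 overlapped a day 2 peak (75%, 30.1 to 95.4), beside 86.1% of the day 5 list. Because 2 of those 3 lay in the same day 2 peak, they are not separate cases and the interval is too narrow. The day 5 share was 66.7% with peaks less than 1 kb apart merged, and 50% with lists of equal length. The shared day 2 peaks scored 82.9 and 162, inside the range of 52.7 to 204 of the 10 without a partner, and 2 of those 10 scored higher than both. In the whole day 2 list the share with a partner was 85.9% in the top 10% by score and 5.97% in the lowest. No day 2 peak of the windows was in the top 20%.

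The overlapping peaks formed 3 pairs, all in the fast window. The day 2 peak was 2.79, 3.87 and 3.57 times as wide as its day 5 partner, beside a median ratio of 2.59 for the 15073 pairs of the lists. In 2 pairs, both with the same day 2 peak, the day 5 peak lay wholly inside. No pair covered at least 50% of both peaks.

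Peak numbers in the surroundings are given as counts, with no test. Beside the fast window, blocks of the same 390 kb length held 2 day 2 peaks before and 4 after it, and those beyond held 0 and 21. At day 5 these blocks held 0 before, 1 after, and 0 and 6 beyond. The fast window thus had more peaks than both adjoining blocks on both days, and fewer than the block that begins 390 kb after it. The day 5 counts are too small to show an excess beyond counting error. A count of 4 has an interval of 1.09 to 10.2, and a count of 0 allows up to 3. Before the window the last day 5 peak lay 1248 kb from the window start, and after it the first lay 100 kb from the end. The day 2 peak nearest outside the start, at 66838133 to 66838982 (score 128), lay 11 kb from the window, so a small shift of the boundary would add it.

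Around the slow window the adjoining 100 kb blocks held 6 and 7 day 2 peaks and 2 and 2 day 5 peaks, beside 4 and 0 in the window itself. These differences lie within counting error, since the count of 4 has an interval of 1.09 to 10.2 and the count of 0 allows up to 3. The blocks beyond held 0 and 6 at day 2 and 1 and 1 at day 5. The stretch with no day 5 peak ran from 55512660 to 55710828, 198 kb in all, and it held 9 day 2 peaks, the 4 of the window and 5 outside it. It ended at a strong day 5 peak, 55710829 to 55711538 (score 444, place 65 of the day 5 list), 70.8 kb after the window.

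**Figure D3:**
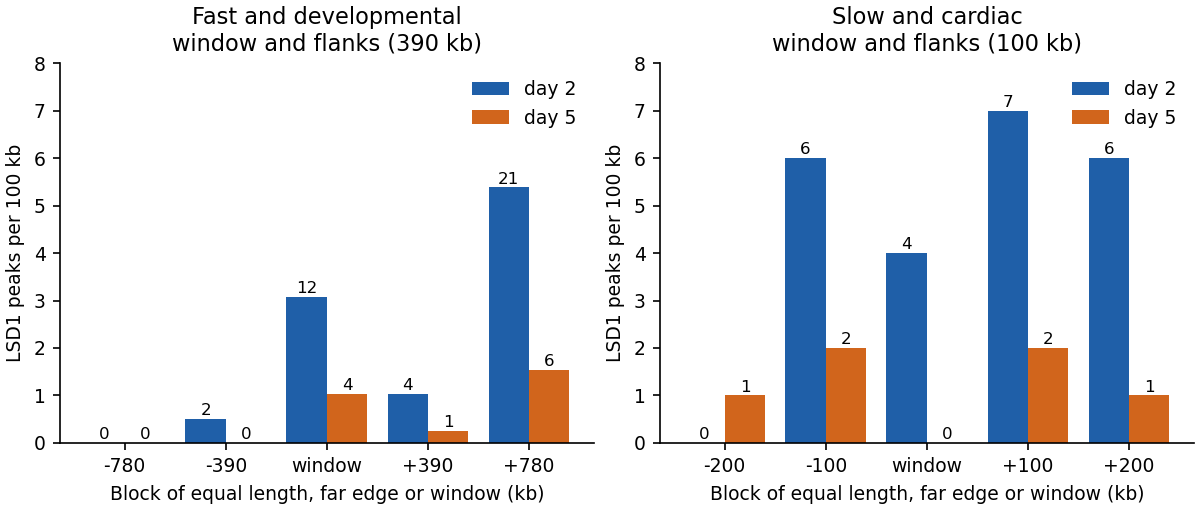
LSD1 peaks per 100 kb in each window and in 2 blocks of equal length on either side, with the number of peaks above each bar; labels give the distance of the far edge of a block from the window in kb. The fast window holds 12 and 4 peaks beside 2 and 0 before it and 4 and 1 after it, and the slow window holds 4 and 0 beside 6 and 2, and 7 and 2.

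Set against tiles of equal length over the 19 autosomes, the peak numbers were not rare. Both day 2 numbers lay above the third quartile of all tiles, empty ones included, which was 11 for 390 kb and 3 for 100 kb. Of 6323 tiles of 390 kb, 23.2% held at least 12 day 2 peaks and 29.4% at least 4 day 5 peaks, and the median tile held 3 and 1. Of 24677 tiles of 100 kb, 18.8% held at least 4 day 2 peaks, and 68.2% held no day 5 peak. With only tiles that had a peak on either day, the day 2 numbers stood out less. Of such 390 kb tiles, 33.8% held at least 12 day 2 peaks and 43.0% at least 4 day 5 peaks. Of such 100 kb tiles, 38.7% held at least 4 day 2 peaks and 34.5% held no day 5 peak. Among the 154 tiles of 390 kb with exactly 12 day 2 peaks the median number of day 5 peaks was 5 (quartiles 4 and 6), beside 4 in the fast window. Among the 1202 tiles of 100 kb with exactly 4 day 2 peaks it was 1 (1 and 2), and 21.8% of them had none, as the slow window had.

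**Figure D4:**
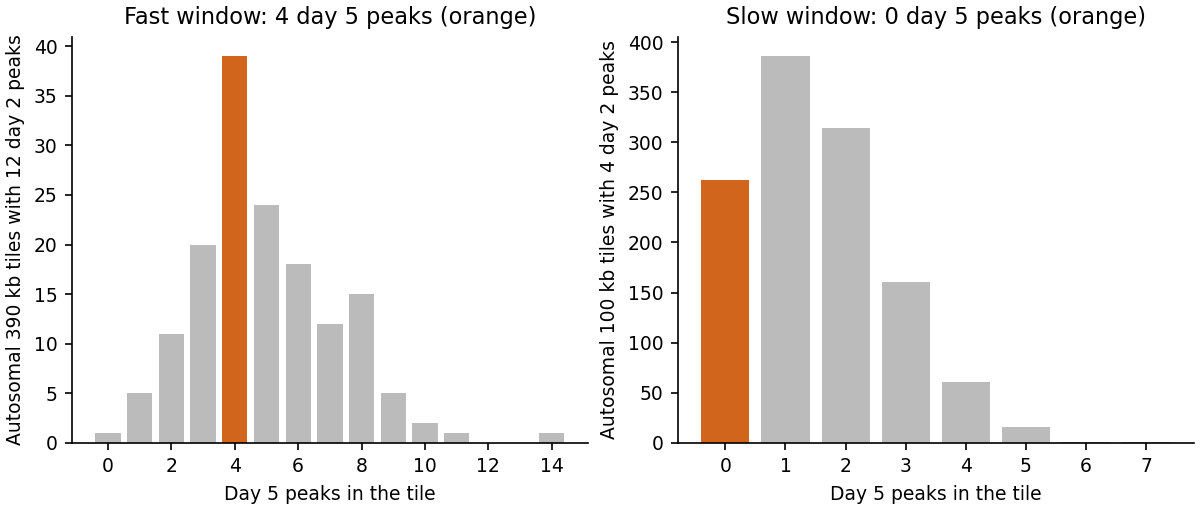
Number of autosomal tiles by their number of day 5 peaks, among tiles of 390 kb with 12 day 2 peaks (left) and tiles of 100 kb with 4 day 2 peaks (right); orange marks the number found in the fast (4) and slow (0) window. The fast window falls in the fullest column, with 39 tiles, and 262 of the 1202 tiles on the right hold no day 5 peak.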

How the data were processed

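LSD1 ChIP-seq and input libraries of C2C12 cells at 2 times were labelled by their titles, with 1 library per group. Per the labels' protocols, chromatin was crosslinked with formaldehyde and disuccinimidyl glutarate and libraries of 170 to 500 bp were amplified for 8 to 10 cycles. Bowtie2, deepTools and mm9 are named in the submitters' processing notes. MACS in Galaxy called the peaks, per the file headers. The score of each peak and its position are the authors' deposited values. The sources used here do not give the cutoff, the use of the input or the read depth.

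Starts were converted to count from 1. Peaks met when they shared at least 1 bp. Ranks were taken within a list. Shares have Wilson and counts exact Poisson 95% intervals, and a count of 0 was given a limit of 3 counts. Complete tiles ran from position 1 to the last peak of each autosome. The members and lists were chosen with earlier results of these data known. The rule for named regions took every peak of a window with 10 or fewer, otherwise the 10 of highest score, every pair and the widest peak; here all 20 are given. The planned placing of peaks on genes, the other sarcomere genes and the protein comparison were not run, because no mm9 annotation and no protein table were used here. Overlap counting was tested on simulated data. Alternatives covered window membership and width, score limit, merging, overlap rule, list length and tiling. Intervals came from SciPy 1.17.1, tables from pandas 2.3.3 with NumPy 2.4.6 under Python 3.11.15, and plots from Matplotlib 3.10.9.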

Additional observations from a re-analysis of the deposited data

How the results depend on the processing

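For 23 values 84 alternatives were computed, of which 70 stayed within their interval, 14 moved and 0 reversed. Most of these values, such as counts, widths and shares, have no sign to reverse, so the last number says little. For counts, widths, covered shares and tile shares the interval was 1.5 times either way, and for ranks of few peaks it was their range. With peaks at or above the median score of their own list, the fast window held 5 day 2 and 0 day 5 peaks, covered 1.01% and 0%, and 0% of its day 2 peaks had a partner, and the slow window held 2 day 2 peaks. When 50% of each partner had to be covered, 0% of the fast members were shared on either day. With each window widened by 50 kb on each side, the slow window held 12 day 2 and 2 day 5 peaks and covered 4.59% and 0.921%, so its lack of day 5 peaks holds for the window as drawn. With empty tiles left out, 38.7% of 100 kb tiles held at least 4 day 2 peaks and 34.5% held no day 5 peak. Fewer peaks, wider windows and fewer tiles enter these alternatives by construction. No paired analysis was possible because each group has 1 library, and no replicate could be left out. The unknown read depth and 20 peaks in all limit every comparison.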
